A study of Mus musculus with 8 samples.

Results

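The TRBV12 family of the mouse T cell receptor (TCR) β chain was followed through 14 tables of single CD8+ T cells. Its members were all cells whose TCRβ (TRB) chain carried a V gene name starting with TRBV12-, which gave 2 of the 24 TRBV genes in the tables, TRBV12-1 and TRBV12-2. They made up 25738 of 188544 cells with a TRB chain and no multiplet mark, and 13326 of 103474 distinct TRB chains. A distinct chain is a V gene, J gene and CDR3 amino acid sequence, where CDR3 is the third complementarity-determining region. TRBV12-1 was found in 16135 cells with 7906 distinct chains, and TRBV12-2 in 9603 cells with 5420. TRBV12-3, the remaining gene of the family in the annotation and a pseudogene there, was assigned to 0 barcodes. A further 3572 of 29310 TRBV12 barcodes carried a multiplet mark and were left out.

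The series set thymic and splenic CD8+ T cells of baseline mice, and thymic and tumor-infiltrating CD8+ T cells of mice with B16-OVA or B16-F10 tumors, side by side in Pdcd1fl/fl and Pdcd1 cKO animals. In the cKO mice Pdcd1, the gene of PD-1, is deleted by Cre under the E8I element of CD8, so that the deletion comes after positive selection and in CD8 T cells, and the controls are Pdcd1fl/fl. The animals were adults, and the floxed line is of C57BL/6 background. B16-F10 is a mouse melanoma line, and B16-OVA is its derivative that carries the model antigen ovalbumin. The labels name 8 multiplexed sublibraries and give none of them a condition, and which animal and tissue a table holds is known only from the name of the table. Genotype and tumor model are not given per animal, so the 14 tables of 7 animals (7 of thymus, 2 of spleen and 5 of tumor) were described one by one, with no comparison of genotypes or tumor models and no test. A CD8a+ kit served for thymus and spleen, and CD8 (TIL) microbeads for digested tumors, so tissue and isolation method cannot be told apart. Intervals are exact (Clopper–Pearson) 95% intervals. They cover counting error only, since amplified reads are not independent molecules and cells of 1 animal are not replicates. Tables held between 5281 and 29894 TRB cells without a multiplet mark, and between 10303 and 123598 TRB transcripts over all barcodes, multiplets included.

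A TCRβ gene is assembled in the thymus by joining a V, a D and a J segment. The CDR3 spans the junction, and the V gene alone encodes the CDR1 and CDR2 loops, which mostly touch the MHC molecule, whereas CDR3 mostly touches the presented peptide. Each V segment is followed by a recombination signal made of a heptamer, a spacer and a nonamer, at which the recombinase cuts. TRBV12-1 and TRBV12-2 are also known by the older name Vβ5, and an antibody to Vβ5 is a common stain for them.

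Tables shared chains and barcode parts, which bears on all values below. No full barcode occurred in more than 1 table (0 of 253531), but 55022 of the 66511 combinations of second-round and third-round wells and sublibrary occurred in more than 1 table. Of the 13326 distinct TRBV12 chains, 10137 (76.1%) were found in 1 animal and 23 in all 7. Those 23 chains held 3986 TRBV12 cells (15.5%), and the chains of 1 animal held 44.7% of the cells. Chains of other TRBV genes were found in 1 animal in 78.9% of cases. Shares are therefore given both by cells and by distinct chains.

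The germline ends of the V segments are shown first, because every TRBV12 CDR3 starts from them. They are the last 55 bases of the V exon on the + strand of chromosome 6 in GRCm39, at chr6:41090947-41091001 for TRBV12-1, chr6:41096244-41096298 for TRBV12-2 and chr6:41104956-41105010 for TRBV12-3, with the bases of the CDR3 in capitals.
TRBV12-1: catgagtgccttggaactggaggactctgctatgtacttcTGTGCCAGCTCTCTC
TRBV12-2: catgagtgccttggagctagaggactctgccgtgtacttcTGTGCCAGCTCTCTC
TRBV12-3: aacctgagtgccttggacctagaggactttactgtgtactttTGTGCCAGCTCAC
The recombination signals that follow both functional exons are at chr6:41091002-41091040 and chr6:41096299-41096337, with the heptamer and the nonamer in capitals.
TRBV12-1 signal: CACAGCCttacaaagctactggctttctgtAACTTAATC
TRBV12-2 signal: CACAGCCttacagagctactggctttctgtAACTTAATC

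The TRBV12-1 gene spans bases 41090484 to 41091001 and the TRBV12-2 gene bases 41095785 to 41096298, with 4783 bases between them, in the order TRBV11, TRBV12-1, TRBV13-1, TRBV12-2, TRBV13-2, TRBV12-3. Their V exons are 293 bases long and differ at 32 positions, an identity of 89.1%. None of the differences lies in the 15 bases of the CDR3 part (0 differences), so both genes offer the same CDR3 start. Of the 39 bases of the recombination signal, 1 differed: A13G, counted from the first base after the exon with the TRBV12-1 base first, which lies in the spacer. The heptamers and nonamers were identical. Because the CDR3 parts are the same, the genes can be separated only upstream of the CDR3, where 5 of the last 65 V bases differ. Each annotated chain was set against both germline exons: 20608 of 20615 chains called TRBV12-1 were closer to TRBV12-1, 6 were equally close and 1 was closer to TRBV12-2, and all 12060 chains called TRBV12-2 were closer to TRBV12-2. The pipeline's own V identity was 100% in 95.8% of TRBV12-1 chains and in 95.2% of TRBV12-2 chains.

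TRBV12-1 was among the most used TRBV genes and TRBV12-2 was in the middle of the order, and TRBV12-1 was higher in 14 of 14 tables. By cells, TRBV12-1 ranked between 1 and 5 of 24 genes (median 3) and TRBV12-2 between 6 and 17 (median 9). By distinct chains the ranks were 2 to 5 and 8 to 11. In the thymus of mouse-155A and mouse-155C, TRBV12-1 held 7.93% and 7.75% of TRB cells and TRBV12-2 4.92% and 5.21%. In the thymus of mouse-160A the genes held 7.70% and 4.63%, and in that of mouse-160B 7.25% and 5.03%. The mouse-160C thymus had 7.58% and 4.65%, the mouse-164B thymus 8.35% and 5.43%, and the mouse-164C thymus 8.16% and 5.56%. Both genes thus kept to a narrow band in the 7 thymus tables. In the spleen, TRBV12-1 held 8.53% in mouse-155A and 7.24% in mouse-155C, and TRBV12-2 held 5.76% and 5.16%.

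The tumor tables spread more widely. TRBV12-1 held 7.40% and TRBV12-2 2.08% (1.71 to 2.51) of TRB cells in the mouse-160A tumor. The mouse-160B tumor had 8.68% and 5.46%, and the mouse-160C tumor 8.41% and 2.31% (2.06 to 2.57). The mouse-164B tumor had 7.42% and 4.89%, and the mouse-164C tumor 11.6% (11.24 to 11.97) and 6.32%. The highest TRBV12-1 share of the 14 tables was therefore in the mouse-164C tumor, and the lowest TRBV12-2 shares were in the mouse-160A and mouse-160C tumors. Against the thymus of the same animal, the intervals of TRBV12-1 lay apart in 3 of 5 animals, higher in the tumor of mouse-160B and mouse-164C and lower in that of mouse-164B. By distinct chains mouse-164B went the other way, with 7.98% in the thymus and 8.70% in the tumor and overlapping intervals. With paired cells its values were 7.75% and 7.54%, also with overlapping intervals. For TRBV12-2 the intervals by cells lay apart in 3 of 5 animals, with tumor minus thymus differences of -2.55 percentage points in mouse-160A, 0.761 in mouse-164C and -2.34 in mouse-160C. These counts depend on the unit: when both chains were required, intervals lay apart in 4 of 5 animals for TRBV12-1 and 2 of 5 for TRBV12-2. With only cells that had both chains, TRBV12-1 held 3.37% (2.58 to 4.30) and TRBV12-2 0.883% (0.506 to 1.43) of the mouse-160A tumor, against 7.45% (6.38 to 8.63) and 4.55% (3.71 to 5.51) of its thymus, so that the intervals of both genes lay apart there. The genes of the family did not move as one: in the mouse-160A and mouse-160C tumors TRBV12-1 made up 78.0% and 78.5% of TRBV12 cells, against a median of 61.0% over the 14 tables. Low shares there were not particular to TRBV12-2. In the mouse-160A tumor TRBV15 (1.61%) and TRBV17 (0.757%) also had their lowest share of the 14 tables, and TRBV13-1 its highest (26.9%). In mouse-160C, TRBV17 was found in 144 of 13482 tumor cells and 326 of 12477 thymus cells. TRBV14 had its highest share (9.98%) in that tumor.

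**Figure D1:**
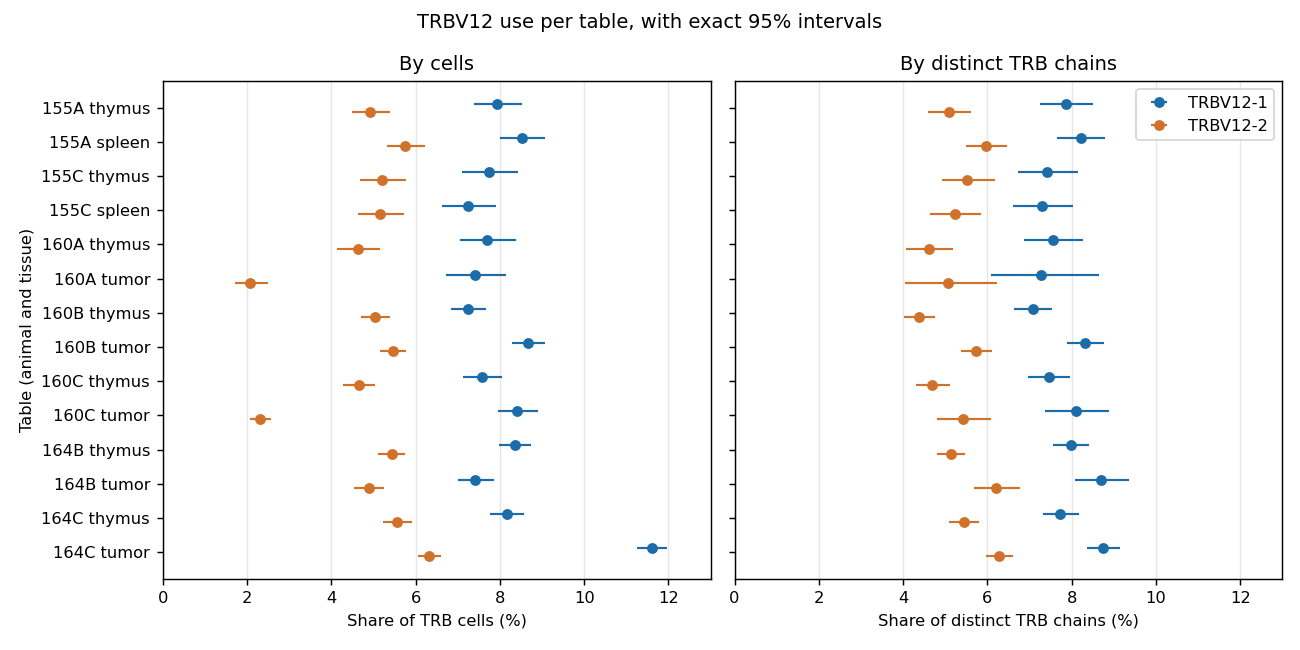
Share (x axis, percent) of TRB cells in the left panel and of distinct TRB chains in the right panel with TRBV12-1 and TRBV12-2 in each of the 14 tables (y axis), with exact 95% intervals for counting error. TRBV12-1 lies above TRBV12-2 in all 14 tables, and by cells the tumor tables spread from 7.40% to 11.6% for TRBV12-1 and from 2.08% to 6.32% for TRBV12-2.

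Single chains carried part of the tumor shares of TRBV12-1. Without the leading TRBV12-1 chain of the table, which lowers any share, TRBV12-1 fell to 7.63% (7.32 to 7.94) of the mouse-164C tumor. In the mouse-160A tumor it fell to 4.399% (3.85 to 4.997). The mouse-160C, mouse-164B and mouse-160B tumors then had 6.61%, 6.50% and 8.28%. The tumor tables thus still spread without these chains, from 4.399% to 8.28%. With every distinct chain counted once, TRBV12-1 ranged from 7.07% to 8.75% (median 7.79%) and TRBV12-2 from 4.38% to 6.28% (median 5.32%). The low TRBV12-2 shares of the mouse-160A and mouse-160C tumors were 5.05% and 5.42% by distinct chains, inside the range of the other tables. They stayed the lowest of the 14 tables when each paired clonotype was counted once, at 2.11% (1.01 to 3.84) and 3.30% (2.39 to 4.43), with 10 and 42 clonotypes of that gene. Of the TRBV12-2 cells in these tumors, 79.1% and 80.4% had 1 TRB transcript, against 51.2% and 57.4% of cells with other TRBV genes. A TRA chain was read in 14.5% and 14.1% of them, against 36.3% and 27.9%. TRBV12-1 made up 57.3% to 62.1% of distinct TRBV12 chains (median 59.1%).

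By distinct chains, the family took a larger share of the tumor than of the thymus of the same animal in 5 of 5 animals, from 0.175 points in mouse-160A to 2.60 points in mouse-160B. The intervals lay apart in 3 of them, mouse-160B, mouse-164B and mouse-164C. With pairs of TRA and TRB CDR3 counted once, the tumor was higher in 4 of 5 animals, and the difference was -3.03 points in mouse-160A. Invariant NKT-like cells, described below, were frequent among the other TRBV genes of the thymus. Without their TRAV11 and TRAJ18 pairs the tumor was still higher in 4 of 5 animals, but the intervals lay apart in 1. For distinct chains the spleen minus thymus difference was 1.24 points in mouse-155A and -0.418 points in mouse-155C, with overlapping intervals in both.

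The TRBV genes outside the family whose share of cells ran most like TRBV12-1 over the 14 tables were TRBV15, TRBV16 and TRBV20, with Spearman's rho of 0.525, 0.486 and 0.371. For TRBV12-2 they were TRBV16, TRBV15 and TRBV17, at 0.807, 0.587 and 0.451. TRBV12-1 and TRBV12-2 had a rho of 0.578 with each other. By distinct chains it was 0.771, and the genes most alike were partly others. They were TRBV3 (0.758), TRBV30 (0.574) and TRBV16 (0.547) for TRBV12-1. For TRBV12-2 they were TRBV16 (0.723), TRBV14 (0.719) and TRBV3 (0.662). These values describe 14 tables that share animals, sublibraries and a fixed sum of 100%.

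The CDR3 start followed the shared germline end. Its shares are of annotated chains, with those of multiplet barcodes included. The whole CDR3 part of 15 bases was kept in 32.1% to 37.2% (median 34.5%) of distinct TRBV12-1 CDR3 nucleotide sequences and in 35.0% to 41.5% (median 37.0%) of those of TRBV12-2, and was kept more often in TRBV12-2 in all but 2 of the 14 tables. The amino acids CASS opened 96.9% of chains of either gene (medians) against 66.0% of chains of other TRBV genes. CASSL, which the complete germline end encodes, opened 51.2% of TRBV12-1 and 53.4% of TRBV12-2 chains, and 15.6% of the others. CASSP, whose proline codon shares its first base with the germline leucine codon, opened 23.96%, 21.1% and 8.42%. TRBV12-1 was the higher of both genes for CASSP in 12 of 14 tables. CDR3 length had a median of 14 residues for both genes and for the other TRBV genes, and its mean was slightly higher in TRBV12-2 than in TRBV12-1 in 11 of 14 tables, with medians of 14.04 and 13.92.

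J gene use separated both genes although their CDR3 ends are identical. The 4 TRBJ genes with the highest shares in TRBV12 chains were TRBJ2-7, TRBJ2-1, TRBJ2-5 and TRBJ1-2. TRBJ1-2 made up 10.9% to 21.5% (median 12.2%) of distinct TRBV12-1 chains, 6.73% to 11.3% (median 9.54%) of TRBV12-2 chains and 5.67% to 7.18% (median 6.61%) of chains of other TRBV genes. It was higher in TRBV12-1 than in TRBV12-2 and than in the others in 14 of 14 tables, and the ranges of TRBV12-1 and of the others did not overlap. Of 12 TRBJ genes, it was the only one above the others in all 14 tables (8.33%). TRBJ2-5 showed the opposite order. It made up 14.2% to 21.6% (median 17.5%) of TRBV12-2 chains, 7.54% to 13.4% (median 10.4%) of TRBV12-1 chains and 9.70% to 11.9% (median 10.7%) of the others. TRBV12-2 was above both in 14 of 14 tables, again for 1 of 12 TRBJ genes (8.33%).

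With chains summed over tables, TRBJ1-2 was joined to 1346 of 11044 TRBV12-1 chains, 12.2% (11.6 to 12.8), the highest of 20 TRBV genes with at least 500 chains, the highest gene outside the family being at 9.92%. TRBJ2-5 was joined to 1281 of 7524 TRBV12-2 chains, 17.03% (16.2 to 17.9), also the highest of the 20, with the highest outside the family at 13.3%. TRBJ2-7 and TRBJ2-1 did not set the family apart: TRBJ2-7 had medians of 18.4%, 19.2% and 18.6% in TRBV12-1, TRBV12-2 and the others, and TRBJ2-1 medians of 14.2%, 12.4% and 13.2%. TRBJ1-1, chosen after its values were seen, was low in both genes, at medians of 7.69% and 8.49% against 12.6% in the others. TRBV12-1 and TRBV12-2 were the lowest of the 20 genes for TRBJ1-1, and the lowest gene outside the family was at 9.66%. TRBV12-1 was below the others in 14 of 14 tables for 2 of 12 TRBJ genes (16.7%), TRBJ1-1 and TRBJ1-6.

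Both preferences were also present among chains of 1 animal only. There TRBJ1-2 had a median of 10.5% in TRBV12-1 and was above the others in 14 of 14 tables and above TRBV12-2 in 11. TRBJ2-5 had a median of 17.1% in TRBV12-2 and was above the others in 14 tables and above TRBV12-1 in 13. Among chains of barcodes that held both chains of the receptor, the medians were 13.6% and 19.9%, and each gene was above the others in 14 tables. The TRBJ2 cluster as a whole made up 63.7% to 70.9% of distinct TRBV12 chains (median 66.6%) and was above the others in 14 of 14 tables, whose median was 63.8%. TRBV12-2 was above the others in all 14 (median 67.9%) and TRBV12-1 in 10 (median 64.3%), and TRBV12-2 was above TRBV12-1 in 12. TRBD1, which can join to either J cluster and lies upstream of both, was named in 56.3% of TRBV12-1 and 54.5% of TRBV12-2 chains with a D call (medians), against 60.7% of the others. Within chains joined to TRBJ2, TRBD1 made up 41.2%, 40.6% and 44.7%.

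**Figure D2:**
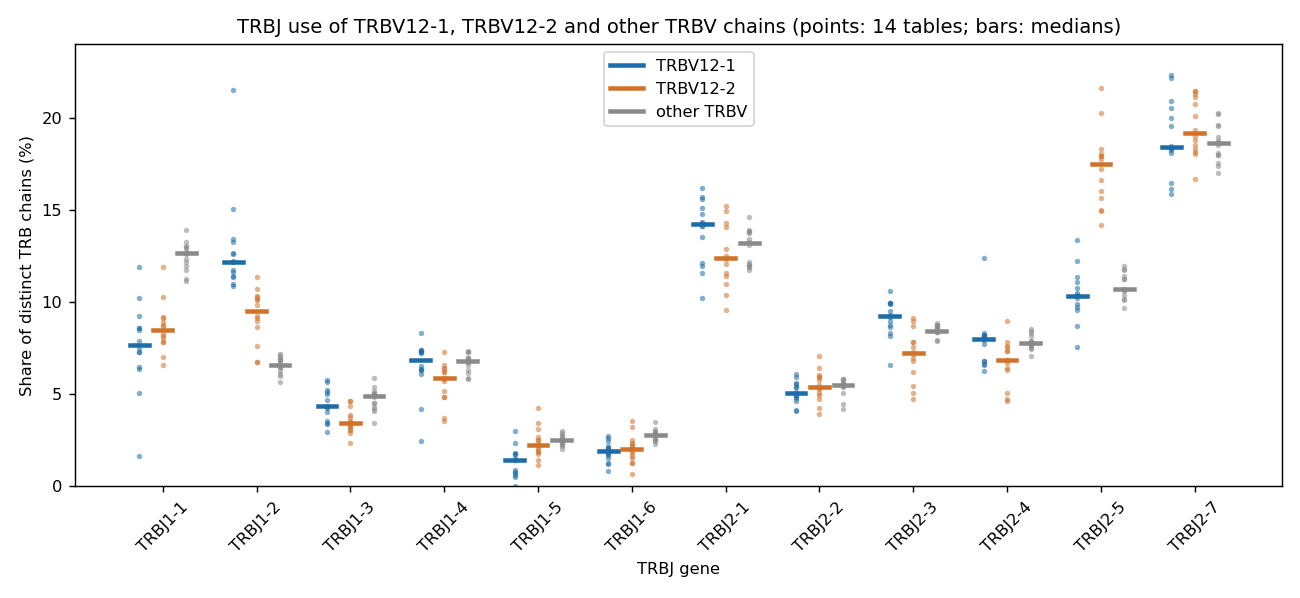
Share of distinct TRB chains (y axis, percent) joined to each TRBJ gene (x axis) for TRBV12-1, TRBV12-2 and all other TRBV genes, as 1 point per table with the median. TRBJ1-2 is highest in TRBV12-1 (median 12.2%), TRBJ2-5 is highest in TRBV12-2 (median 17.5%) and TRBJ1-1 is lower in both than in the other TRBV genes (12.6%).

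A TRA chain was read in 5937 TRBV12-1 and 3288 TRBV12-2 cells, which made 4556 and 2889 distinct pairs, counted per table. Duplicated TRAV copies (D and N names) were merged under 1 gene name for this. The 5 TRAV genes with the highest median share in the family were TRAV12-1 (8.76%), TRAV14-1 (7.29%), TRAV9-3 (5.95%), TRAV6-6 (5.45%) and TRAV3-1 (5.24%). Among other TRBV genes their medians were 9.07%, 6.64%, 3.33%, 5.31% and 6.41%, so TRAV9-3 was the only one of these 5 more than 1 point higher in the family. TRAV9-3 made up 336 of the TRBV12-1 pairs, 7.37% (6.63 to 8.17), against 4.19% of TRBV12-2 pairs and 3.67% of the others. It was above the others in TRBV12-1 in all 14 tables, which held for 1 of 54 TRAV genes (1.85%). For TRBV12-2 no TRAV gene was above the others in all 14 tables (0 of 54).

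The J genes of TRA named next were chosen after their values were seen. TRAJ27 made up 228 TRBV12-1 pairs, 5.00% (4.39 to 5.68), against 2.77% of TRBV12-2 pairs and 2.57% of the others. It was above both in 14 of 14 tables, which held for 1 of 45 TRAJ genes (2.22%). TRAJ45 made up 3.91% and 4.43% of the pairs of both genes and 2.55% of the others. The family was above the others in all 14 tables for 2 of 45 TRAJ genes (4.44%), TRAJ27 and TRAJ45. Low partners of TRBV12-1 were TRAV12-2 and TRAV7-3, also chosen after their values were seen and below the others in all 14 tables, as were 2 of 54 TRAV genes (3.7%). TRAV12-2 made up 3.03% of TRBV12-1 pairs, 2.73% of TRBV12-2 pairs and 4.26% of the others. TRAV7-3 was low in TRBV12-1 only, at 1.73% against 3.32% and 3.22%.

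Invariant NKT cells use a fixed TRAV11–TRAJ18 chain that pairs with a small set of Vβ genes, mainly TRBV13-2, TRBV29 and TRBV1 in the mouse, and recognize lipids presented by CD1d. TRAV11 or TRAV11D with TRAJ18 was found in 22 of 2160 paired TRBV12-1 thymus cells (1.02%) and 23 of 1391 TRBV12-2 thymus cells (1.65%), against 2381 of 25583 cells with other TRBV genes (9.31%). Per thymus the family ranged from 0 to 2.30% and the others from 6.61% to 12.1%, with no overlap. In the spleen they numbered 0 of 391 TRBV12-1 and 0 of 300 TRBV12-2 cells and 18 of 4014 others (0.448%). In the tumor they numbered 1 of 3386 (0.000748 to 0.164%) and 0 of 1597, and 39 of 28092 others (0.139%). A count of 0 was taken to allow 3 cells, that is up to 0.767% and 1% in the spleen and 0.188% in the tumor, so a difference from the other TRBV genes was not detectable in either tissue at this depth. The MAIT-like combination of TRAV1 with TRAJ33 was found in 0 TRBV12 cells, and among other TRBV genes in 1 of 25583 thymus, 0 of 4014 spleen and 0 of 28092 tumor cells. No column for γδ TCR or immunoglobulin chains exists in the tables.

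Transcript and read recovery differed by V gene. In the thymus, TRBV12-2 cells held a mean of 3.34 to 5.43 TRB transcripts per table (median 4.99), TRBV12-1 cells 2.77 to 4.52 (median 3.87) and cells with other TRBV genes 2.70 to 3.94 (median 3.62). TRBV12-2 was above both in 7 of 7 thymus and 2 of 2 spleen tables, but above the others in only 2 of 5 tumor tables. Reads ran the other way. The median TRB reads per cell were below those of other TRBV genes in 14 of 14 tables, with medians of 61.5 for TRBV12-1 and 60.2 for TRBV12-2 against 117.5. Reads per transcript were 31.2 and 32.4, at ranks 12 to 15 and 13 to 15 of 19 TRBV genes with at least 20 cells in each table. Between the genes at both ends of this order, named for their place in it, reads per transcript ranged from 13.7 in TRBV20 to 154.9 in TRBV14. Whether recovery by V gene alters the shares above was not tested.

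**Figure D3:**
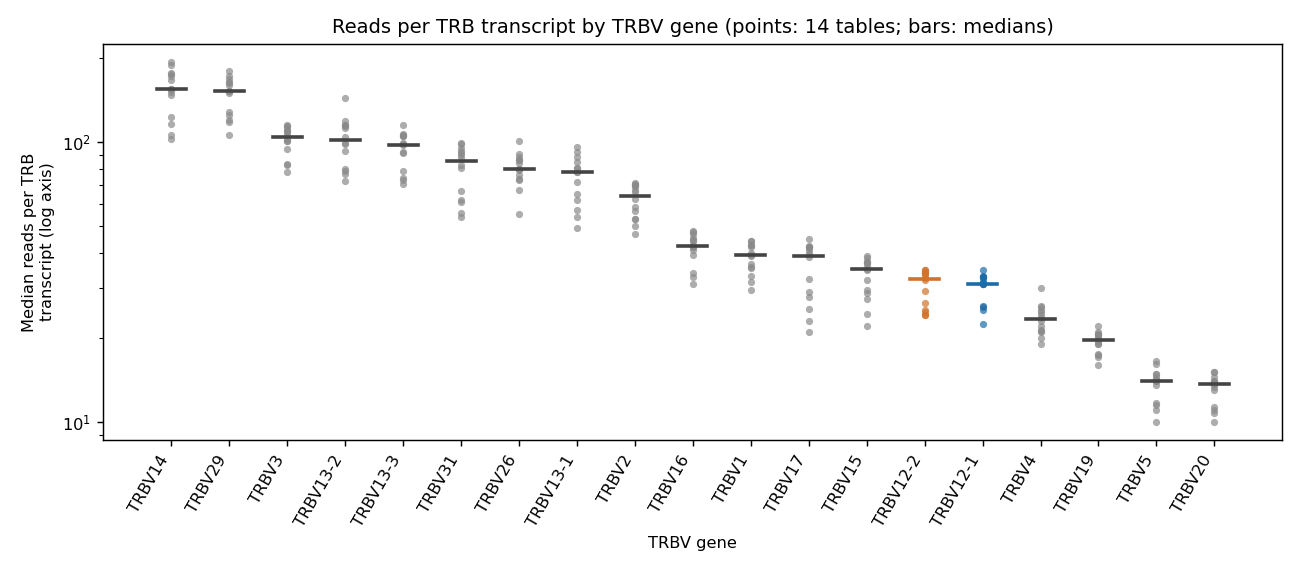
Median reads per TRB transcript (y axis, log scale) for 19 TRBV genes (x axis), with 1 point per table and a bar at the median. TRBV12-1 (31.2) and TRBV12-2 (32.4) lie together in the lower part of the order, which runs from 13.7 to 154.9 reads per transcript.

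The most abundant TRBV12 chains are printed as nucleotide CDR3s, since they carry the counts of the tumor tables, with the germline V bases kept in lower case and everything after the first mismatch to the germline V end in capitals. Chains 1 to 5 were those found in the most animals and cells, and chains 6 to 8 are the next in number of cells.
Chain 1, TRBV12-1 with TRBJ1-2: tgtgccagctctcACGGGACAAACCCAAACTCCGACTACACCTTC
Chain 2, TRBV12-1 with TRBJ1-2: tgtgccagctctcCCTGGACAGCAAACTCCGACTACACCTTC
Chain 3, TRBV12-1 with TRBJ2-7: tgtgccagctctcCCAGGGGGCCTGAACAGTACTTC
Chain 4, TRBV12-2 with TRBJ2-5: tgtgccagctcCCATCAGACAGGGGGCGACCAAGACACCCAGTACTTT
Chain 5, TRBV12-2 with TRBJ1-1: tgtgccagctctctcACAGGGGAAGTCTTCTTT
Chain 6, TRBV12-1 with TRBJ2-5: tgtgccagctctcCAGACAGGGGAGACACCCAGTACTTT
Chain 7, TRBV12-2 with TRBJ2-7: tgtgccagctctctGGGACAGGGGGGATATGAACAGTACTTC
Chain 8, TRBV12-1 with TRBJ2-2: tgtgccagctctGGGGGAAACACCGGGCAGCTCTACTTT
Chain 5 keeps all 15 germline bases and chain 4 keeps 11. Chains 2, 3, 5, 6, 7 and 8 read in amino acids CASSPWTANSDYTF, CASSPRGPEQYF, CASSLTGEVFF, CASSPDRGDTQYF, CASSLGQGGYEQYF and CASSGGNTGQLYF.

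Chain 1 was found in 1860 cells and in all 14 tables. The mouse-164C tumor held 1287 of them, 37.1% of its TRBV12-1 cells, and each of the other tables held between 12 and 89. In the mouse-164C tumor 63.6% of its cells had a TRA chain and their mean TRB transcript number was 5.67. In the other tables, which held 573 cells together, 2.97% had a TRA chain and 98.95% had 1 TRB transcript. Of these 573 cells, 239 shared their second-round and third-round wells and sublibrary with a chain 1 cell of the mouse-164C tumor (41.7%). In the same tables this held for 226 of 12093 cells with other TRBV12-1 chains (1.87%), for 150 of 7713 TRBV12-2 cells (1.94%) and for 2628 of 138271 cells with other TRBV genes (1.90%). The part of such barcodes in the shares above was not tested beyond the counts without this chain. Of the 1317 annotated copies of the chain, 1316 had the same nucleotide CDR3. Chain 1 was the most frequent TRBV12-1 chain in 11 of the 14 tables, 10 of which were not the mouse-164C tumor. It led in all 7 thymus tables, at 2.38% to 4.76% of TRBV12-1 cells.

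Chains 2 to 8 had the same shape, with most cells in 1 table and few, mostly unpaired cells elsewhere. Chain 2 was found in 324 cells, 260 of them in the mouse-160C tumor, where it made up 22.9% of TRBV12-1 cells. Chain 3 was found in 274 cells, with 166 in the mouse-160A tumor, 42.5% of the TRBV12-1 cells there. Few cells of either had a TRA chain even in the table that held most of them, 16.2% for chain 2 and 8.43% for chain 3, and the leading TRA chain of chain 2 was found in 4 of 42 paired cells. Chains 4 and 5 had 153 of 250 and 133 of 207 cells in the mouse-164C tumor. Chain 6 had 142 of 201 cells in the mouse-164B tumor, 77.5% of them with a TRA chain. Chain 8 had 91 of 115 cells in the mouse-160C tumor. Chain 7 was the exception in tissue, with 94 of 137 cells in the mouse-160B thymus and 19 in the tumor of the same animal.

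**Figure D4:**
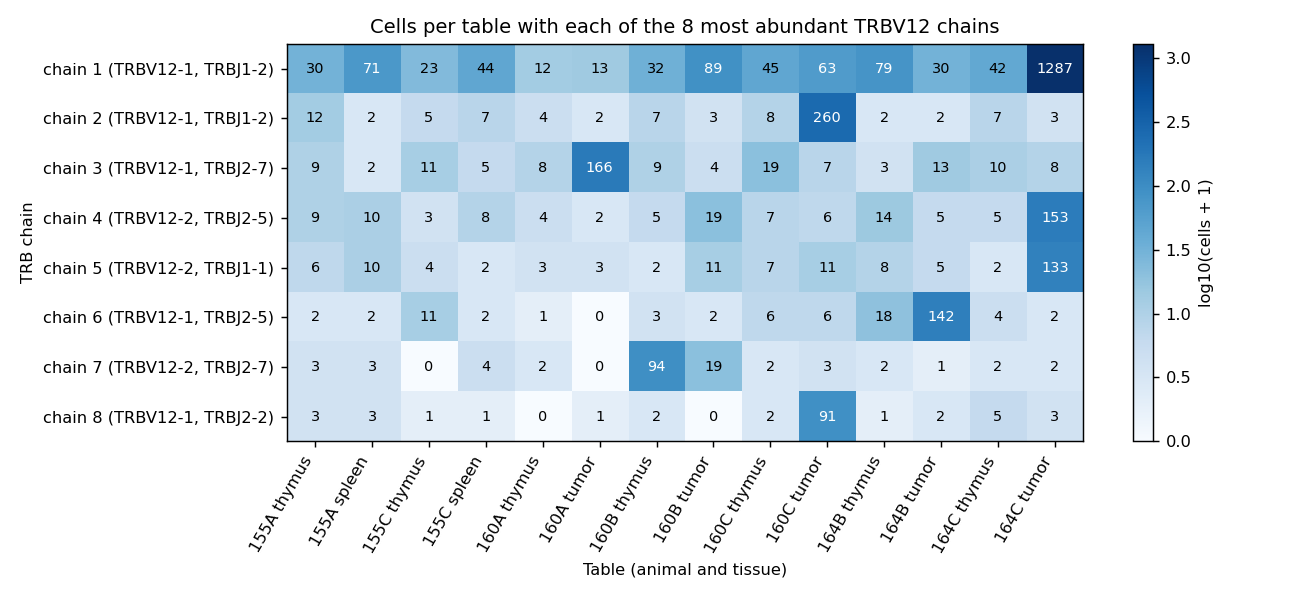
Number of cells of the 8 most abundant TRBV12 chains (y axis) in each of the 14 tables (x axis), written in each square and shaded by log10 of the number plus 1. Each chain has most of its cells in 1 table, as chain 1 has 1287 of its 1860 cells in the mouse-164C tumor, and lower counts in nearly all others.

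Most clonotypes, each a TRA CDR3 with a TRB CDR3 by amino acids, were found in 1 cell in thymus, spleen and tumor alike. In the tumor this held for between 75% (mouse-160A) and 98.3% (mouse-164C) of TRBV12 clonotypes. The repeated ones, of at least 2 cells, held a larger part of the paired TRBV12 cells in the tumor. They held 21.2% to 61.4% there, 0 to 9.69% in the thymus, and 0 and 4.64% in the spleen. Each TRBV12-1 clonotype was found in 1 cell in 5 of 7 thymus tables and in both spleen tables. The 10 most frequent TRBV12 clonotypes held 1.69% to 10.8% of paired TRBV12 cells in the thymus, 2.01% and 8.25% in the spleen and 14.8% to 57.1% in the tumor (median 36.9%), with no overlap between thymus and tumor. Since 10 clonotypes are a larger part of a small table, the number of cell pairs with the same clonotype per 10000 pairs was also computed, which does not grow with fewer cells. It ranged from 0 to 77.8 in the thymus (median 0), and from 36.5 to 789 in the tumor (median 332). Other TRBV genes had 0.0124 to 1.16 in the thymus and 8.05 to 512 in the tumor (median 230). The family and the other genes are not like for like here, since pairs drawn across many more V genes match less often. By the share of paired tumor cells in repeated clonotypes, the family had a median of 38.5% and the other TRBV genes 52.5%. In the mouse-164C tumor the family was the higher, at 38.5% against 18.7%. The thymus value of 77.8 came from mouse-160B and from 1 clonotype. The thymus and tumor ranges of the family overlapped through that table.

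The largest TRBV12 clonotype was chain 1 with a TRAV12-1 and TRAJ56 chain in the mouse-164C tumor. It held 741 of 1815 paired TRBV12-1 cells (40.8%) and 5.58% of all paired cells of that table. The same TRA CDR3 was therefore found in most of the 819 paired chain 1 cells there. TRAV12-1 made up 38.0% of the paired TRBV12 cells of that table. In the mouse-164B tumor, chain 6 with the TRA CDR3 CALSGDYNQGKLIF, of TRAV6-5 and TRAJ23, held 104 of 444 paired TRBV12-1 cells (23.4%). In the mouse-160C tumor, chain 8 with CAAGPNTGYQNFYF, of TRAV19, held 57 of 352 (16.2%), and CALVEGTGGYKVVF with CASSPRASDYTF held 38. In the mouse-160B tumor, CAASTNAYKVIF with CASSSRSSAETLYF held 49 of 714 TRBV12-1 cells and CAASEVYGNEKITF with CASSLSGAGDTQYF held 33 of 431 TRBV12-2 cells. In the mouse-160A tumor, only 61 TRBV12-1 and 16 TRBV12-2 cells were paired, and the leading clonotypes were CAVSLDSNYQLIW with chain 3, in 9 of them, and a TRAV14-2 and TRAJ48 chain with a TRBV12-2 and TRBJ2-5 chain, in 6.

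The TRBV12-2 clonotypes with the most cells were in the mouse-164C tumor, and the next was in a thymus. Chain 7 with a TRAV12-1 and TRAJ28 chain held 55 of 251 paired TRBV12-2 cells (21.9%) of the mouse-160B thymus, and the same pair was found in 10 cells of that animal's tumor and in 0 cells of other animals. In the mouse-164C tumor, chain 5 with a TRAV12-1 and TRAJ45 chain held 75 of 851 (8.81%) and chain 4 with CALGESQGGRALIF held 72 (8.46%). In the mouse-164B tumor a TRAV8D-2 and TRAJ52 chain with a TRBJ2-5 chain held 16 of 255 (6.27%), and in the mouse-160C tumor the leading TRBV12-2 clonotype held 2 of 44. In the mouse-155C spleen a TRAV12-1 and TRAJ28 chain with a TRBJ2-7 chain held 4 of 89. In the mouse-164C thymus the leading clonotypes of TRBV12-1 and TRBV12-2 held 3 and 2 cells.

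Some TRAV genes held over 10% of the paired TRBV12 cells of a table. TRAV12-1 did so in 3 thymus tables, mouse-155A (15.2%), mouse-160A (11.1%) and mouse-160B (15.99%), in the mouse-155C spleen (12.9%) and in the mouse-164C tumor. In the thymus of mouse-155A and mouse-160A each of these pairs was found in 1 cell, whereas 55 of the 99 TRAV12-1 cells of the mouse-160B thymus were of the chain 7 clonotype. In the tumors, such TRAV genes were led by 1 repeated pair. TRAV6-5 held 121 of 699 cells in mouse-164B (17.3%), 104 of them of the chain 6 clonotype. In mouse-160C, TRAV19 held 61 of 396 (15.4%), TRAV6-4 54 (13.6%), TRAV9-2 45 (11.4%) and TRAV9-4 43 (10.9%), and their leading pairs had 57, 38, 22 and 33 cells. In mouse-160A, TRAV7-5 held 9 of 77 (11.7%) and TRAV5-4 8 (10.4%), each all in 1 pair.

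**Figure D5:**
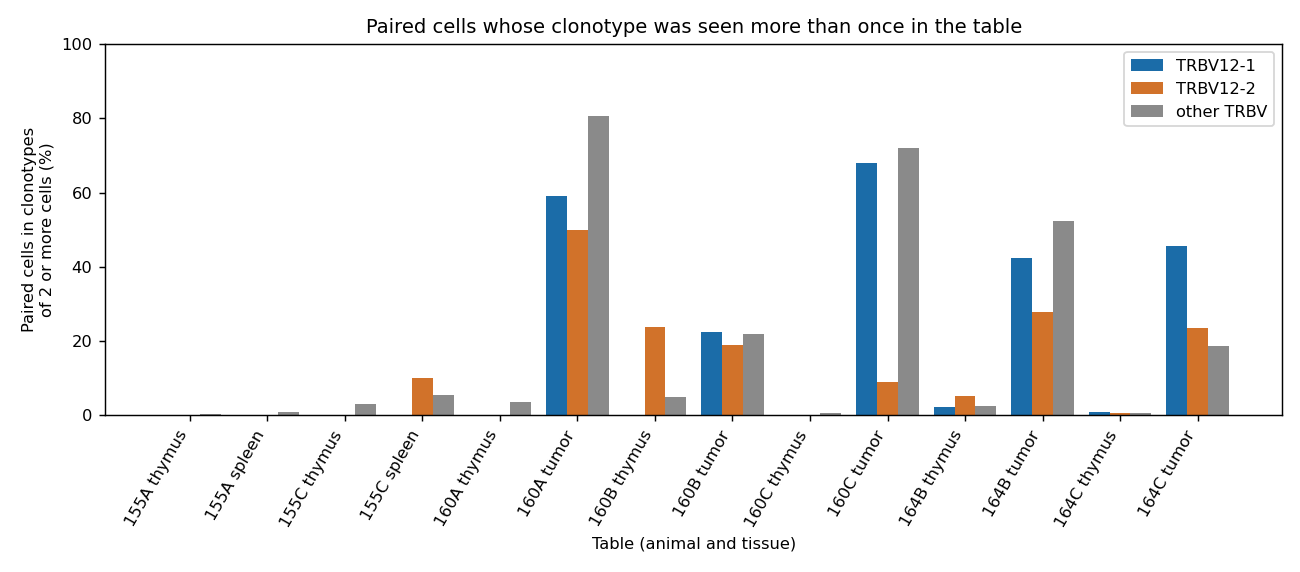
Share of paired cells (y axis, percent) in clonotypes of at least 2 cells for TRBV12-1, TRBV12-2 and other TRBV genes in the 14 tables. Thymus and spleen bars are at most 5.47% except TRBV12-2 in the mouse-160B thymus (23.9%) and the mouse-155C spleen (10.1%). Tumor bars reach 67.9% for TRBV12-1 in mouse-160C, below the other TRBV genes there (71.9%). The highest bar is that of other TRBV genes in the mouse-160A tumor (80.5%).

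The thymus and the second tissue of an animal shared 22 TRBV12 clonotypes in all, 9 with TRBV12-1 and 13 with TRBV12-2. Mouse-164B had 11 of them, mouse-160B 6, mouse-164C 4 and mouse-155C 1, and mouse-155A, mouse-160A and mouse-160C had 0. These were 1.19%, 1.07%, 0.487% and 0.752% of the TRBV12 clonotypes of the thymus in the first 4 animals named. For other TRBV genes the shares there were 0.908%, 0.850%, 0.134% and 1.29%. In mouse-155A, mouse-160A and mouse-160C those genes had 0.110%, 0.967% and 0.160%. The mouse-160A tumor held only 44 TRBV12 clonotypes. The 42 pairs of a thymus and a second tissue of different animals shared 11 in all and at most 1 each. Other TRBV genes had 148 clonotypes shared within animals and 102 across them. By TRB chain alone the difference was not seen: own pairs shared 21 to 237 TRBV12 chains (median 83) and pairs of different animals 32 to 312 (median 90.5). Of the 22 clonotypes, 13 had more cells in the second tissue, 3 had more in the thymus and 6 had 1 cell in each.

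Chain 6 with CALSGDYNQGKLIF had 8 thymus and 104 tumor cells in mouse-164B, and chain 7 had 55 thymus and 10 tumor cells in mouse-160B. A TRBV12-2 and TRBJ2-1 clonotype with TRAV7D-3 had 14 thymus and 8 tumor cells in mouse-164B. The only shared clonotype of mouse-155C, a TRAV14-2 chain with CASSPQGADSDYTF, had 1 thymus and 2 spleen cells. The mouse-164C clonotype with the highest share in its less frequent tissue paired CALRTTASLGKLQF with a TRBV12-1 chain and had 2 thymus and 4 tumor cells. The largest clonotype of the family, of chain 1, had 1 cell in the mouse-164C thymus and 741 in the tumor. The same pair was also found outside mouse-164C. With TRB chains found in more than 1 animal left out, 3 shared clonotypes remained, and the part of chains carried between tables in the other counts was not tested.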

How the data were processed

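Chains had been assembled and clonotypes called by the authors with the Parse Biosciences TCR pipeline from Parse Evercode TCR libraries. The build was GRCm39 per the submitters' processing notes, with the pipeline's version and gene reference not given in the sources used here. Deposited barcode tables hold read and transcript counts per chain. The deposited clonotype tables hold cell counts and the same as a fraction, and all 7447 TRBV12 pairs found there had the count obtained here. The deposited annotation tables hold V identity as percent and nucleotide CDR3s, and covered 93.0% of TRBV12 barcodes of the mouse-160B thymus, 41.6% of the mouse-164B thymus, 29.6% of the mouse-164C tumor and 100% elsewhere.

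Barcodes marked as multiplets by the pipeline were left out of the cell, chain and clonotype counts, and no other doublet caller was run. The annotated chains were not filtered by this mark. They gave the check of V calls, the CDR3 starts and the copies of printed nucleotide CDR3s, so their numbers can exceed those of the cells. Shares, exact intervals and counts were computed with Python 3.11.15, pandas 2.3.3 and scipy 1.17.1. Only the coverage of the intervals and the count of germline bases kept were tested on simulated data. Germline sequences are from GRCm39 with GENCODE annotation. Named were the TRBV12 genes, the 3 TRBV genes most like each, the 4 leading TRBJ and 5 leading TRAV genes, TRAV genes over 10% of a table's paired TRBV12 cells, the leading clonotype of each gene and table (with those of 1 cell only counted) and those of at least 50 cells, leading shared clonotypes and the 5 chains in most animals. The members and lists were chosen with earlier results of these data known. Alternatives changed the barcodes, transcript minimum, weights, chain definition and sublibraries.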

Additional observations from a re-analysis of the deposited data

How the results depend on the processing

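Of 49 alternative values, each a median over tables or a count, 8 left the interval or the 1.5-fold range of the reported one. The median TRBV12-2 share of 5.09% became 4.56% with both chains required and 6.32% with cells weighted by TRB transcripts. With that weight, the TRBV12-1 share of the family was 56.2% in place of 61.0%, and the 10 most frequent clonotypes held 18.8% in place of 7.88%. The family share of distinct chains was 11.7% in place of 13.02% without TRB chains found in more than 1 animal. The 22 shared clonotypes became 14 with at least 2 TRB transcripts, 3 without chains of more than 1 animal and 747 by TRB chain alone. These causes were not tested. Single tables moved more often: the share of TRBV12-1 left its interval in 11 of 14 tables without chains of more than 1 animal and in 7 with both chains required, and that of TRBV12-2 in 13 weighted by transcripts and in 9 with both chains required. TRBV12-1 stayed above TRBV12-2 in 14 of 14 tables except without chains of more than 1 animal (13 of 14). Leaving out each of the 8 sublibraries in turn moved 0 of 56 values out of range. The alternatives without chain 1 outside the mouse-164C tumor, without TRAV11 and TRAJ18 pairs, and the 3 restrictions of the TRBJ chains were chosen after seeing the data.

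The tissues of an animal were compared within the animal, by their intervals, and no replicate block was fitted, since the labels give no group. Annotation of 3 tables was partial here. The mouse-160A tumor, with 77 paired TRBV12 cells, limits all values on pairs there.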

Other observations

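The CDR3 amino acid sequences of both genes overlapped. Of 7897 TRBV12-1 and 5416 TRBV12-2 sequences, 931 were found with both genes, 11.8% and 17.2% of each list. By nucleotide sequence 432 were found with both, 3.78% of 11416 and 5.76% of 7503.

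A secondary TRB chain was listed for 1870 of 16135 TRBV12-1 cells (11.6%) and 1148 of 9603 TRBV12-2 cells (11.95%). It carried the gene of the first chain in 380 TRBV12-1 cells (20.3%) and 190 TRBV12-2 cells (16.6%), whereas TRBV12-1 and TRBV12-2 made up 6.55% and 3.90% of the secondary chains of cells with another TRBV gene. In 339 of these 570 cells both CDR3s had the same length and were 1 residue apart, and 108 of the 570 cells were in the mouse-164C tumor.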
